A study of Mus musculus with 12 samples.

Results

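Cholesterol synthesis, uptake and efflux were followed through 30 genes in cultured mouse proximal tubule (PT) cells. The genes were taken by name from a given list and matched to the counted transcripts by Ensembl identifier, and each gene was represented by its transcript with the highest total, so that 30 of 25514 genes are described. They comprise 19 enzymes of cholesterol synthesis (8 of the mevalonate steps and 11 of the squalene and sterol steps), 4 regulators of the transcription factor SREBP2 pathway, the sterol carrier Stard4, 2 LXR receptors, 3 LXR-driven genes and the sterol esterification enzyme Soat1. Of these, 29 passed the filter on low counts, and Nr1h3 did not.

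The 12 libraries came from 2 conditionally immortalized PT cell lines, both carrying the H2ts6 transgene. This is a temperature-sensitive T antigen that keeps the cells dividing at the lower temperature used for growth. The study's methods state that before experiments the cells were kept warmer and IFNγ was withdrawn so that they would differentiate. One line was H2ts6;Tgfbr2fl/fl, called TβRII flox/flox here, and the other H2ts6;Tgfbr2-/-, called TβRII-/-, made by giving Cre with an adenovirus to floxed cells in vitro. The cells were isolated from male mice. Each line was either left untreated in normal culture medium or given H2O2 in serum-free medium for 24 h, and every one of these 4 groups had 3 libraries. The labels give the H2O2 dose as 200 mM, and the study's methods give the same figure in μM. The methods also state that cells were starved of serum before H2O2, so that an effect of H2O2 and an effect of serum removal cannot be told apart. Each genotype was 1 line, so that what TβRII loss did and what otherwise set the 2 lines apart cannot be told apart either. Nothing in the labels says that the 3 libraries of a group came from separate cultures, and the p-values then measure only the spread between these libraries.

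Cells make cholesterol from acetyl-CoA through mevalonate, farnesyl diphosphate and squalene, and the ring-forming and ring-editing steps end in cholesterol. When sterols in the endoplasmic reticulum are low, the escort protein Scap carries SREBP2 (encoded by Srebf2) to the Golgi, where it is cut and freed to switch on the genes of the synthesis enzymes, and the Insig proteins hold the complex back when sterols are plentiful. When oxysterols rise, the LXR receptors (Nr1h2 and Nr1h3) switch on genes of sterol export and of receptor breakdown, among them Abca1, Abcg1 and Mylip. Proximal tubule cells take up filtered lipoproteins and their bound lipids by endocytosis as part of their normal work.

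Promoter sequences are given for 6 genes on which the results below turn: Hmgcs1, Insig1, Cyp51 and Tm7sf2, all of which rose with H2O2, Pmvk, whose H2O2 response took opposite directions in the 2 lines, and Abca1, which fell. Each is the 250 bases before the RefSeq start in GRCm38.p6, written 5′ to 3′ on the strand of the gene. Capitals mark letter matches, on either strand, to the sterol regulatory element core TCACNCCAC, the NF-Y box CCAAT and the Sp1 box GGGCGG. Pmvk has 2 listed starts, and the first is shown.
Hmgcs1 (chr13:119690101-119690350, plus strand): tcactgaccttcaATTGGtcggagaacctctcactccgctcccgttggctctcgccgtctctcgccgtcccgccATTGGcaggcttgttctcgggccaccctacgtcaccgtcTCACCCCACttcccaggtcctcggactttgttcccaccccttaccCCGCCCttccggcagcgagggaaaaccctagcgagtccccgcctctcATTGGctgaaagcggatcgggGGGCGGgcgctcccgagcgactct
Insig1 (chr5:28071162-28071411, plus strand): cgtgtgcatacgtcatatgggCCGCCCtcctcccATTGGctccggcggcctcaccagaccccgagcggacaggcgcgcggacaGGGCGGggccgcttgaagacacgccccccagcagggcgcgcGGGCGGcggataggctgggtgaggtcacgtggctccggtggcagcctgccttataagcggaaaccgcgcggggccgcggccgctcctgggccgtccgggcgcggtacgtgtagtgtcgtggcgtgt
Cyp51 (chr5:4104698-4104947, minus strand): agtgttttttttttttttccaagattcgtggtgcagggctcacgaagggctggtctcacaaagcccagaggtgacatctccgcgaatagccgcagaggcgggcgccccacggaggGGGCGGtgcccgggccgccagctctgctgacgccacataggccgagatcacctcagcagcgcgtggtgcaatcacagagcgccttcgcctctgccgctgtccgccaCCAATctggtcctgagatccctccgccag
Tm7sf2 (chr19:6067851-6068100, minus strand): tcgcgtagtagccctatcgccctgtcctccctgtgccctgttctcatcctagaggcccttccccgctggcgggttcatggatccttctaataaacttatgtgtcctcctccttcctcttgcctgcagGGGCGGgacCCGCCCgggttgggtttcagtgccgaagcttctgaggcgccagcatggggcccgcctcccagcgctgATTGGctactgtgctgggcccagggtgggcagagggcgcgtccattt
Pmvk (chr3:89454291-89454540, plus strand): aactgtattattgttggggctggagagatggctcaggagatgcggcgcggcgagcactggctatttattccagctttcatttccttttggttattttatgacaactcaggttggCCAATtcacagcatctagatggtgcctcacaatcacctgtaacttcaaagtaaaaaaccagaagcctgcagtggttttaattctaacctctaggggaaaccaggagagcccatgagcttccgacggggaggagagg
Abca1 (chr4:53159896-53160145, minus strand): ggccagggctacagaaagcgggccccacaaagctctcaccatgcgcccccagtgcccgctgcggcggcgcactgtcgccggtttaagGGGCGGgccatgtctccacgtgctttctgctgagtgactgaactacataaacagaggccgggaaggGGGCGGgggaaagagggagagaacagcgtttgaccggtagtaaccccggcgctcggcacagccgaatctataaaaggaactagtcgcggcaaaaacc

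Across the 300-base windows that RefSeq lists (250 bases before and 50 after the start), 25 of the 30 members had a window, with 32 windows in all, and Fdft1, Sqle, Fdps, Abcg1 and Stard4 had none. The sterol regulatory element letters were found in the window of 1 member, Hmgcs1, and in 1.24% of all 32851 windows. Other forms of this element were not searched, so the other members cannot be said to lack one. CCAAT was found for 15 of the 16 enzymes with a window and for 5 of the 9 other members, and in 37.4% of all windows. The only enzyme with a window and no CCAAT was Acat2. GGGCGG was found for 14 of the 16 enzymes and 7 of the 9 others, and in 35.7% of all windows. A gene with several windows was counted if any of them held the letters. An LXR element, searched as 2 exact copies of AGGTCA spaced by 4 bases, was in no member window and in 0.0152% of all windows. Inexact copies were not searched and so few windows hold the exact letters that the miss cannot show that an LXR element is absent. These searches overlap in no letters of the printed promoters, and they show letters only, not binding.

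Per library, 51387170 to 69231661 counts over transcripts were deposited, and 15870155 to 20857618 of them remained with 1 transcript per gene. Below, a normalised read count is a count scaled to a library of 17351835 reads. Tgfbr2 itself was counted at 9248, 8369 and 7562 in untreated TβRII flox/flox and 6782, 6675 and 6358 in untreated TβRII-/- libraries (log2 fold change -0.35 ± 0.066, adjusted p = 2.81e-05), and at 13275, 13918 and 13707 and 7221, 7311 and 7116 in the treated ones. A count over the whole transcript does not show whether the floxed part is lost, so the genotype was not checked by it. The study's methods report that the deletion was checked by immunoblotting and RNAseq. Of 10 proximal tubule markers, Lrp2, Aqp1 and Cdh6 were abundant, Slc22a6 was at 0 in every library, and Slc34a1 and Hnf4a were near 0. The summed level of the list was 35802 to 44692 in untreated and 46588 to 50746 in H2O2-treated TβRII flox/flox libraries, against 18419 to 19463 and 20144 to 21733 in TβRII-/- libraries, so that it moved with genotype and with treatment. All 6 of the markers that passed the filter were lower in TβRII-/- cells in both conditions. With H2O2 in TβRII flox/flox cells 1 of the 6 was called higher and 1 lower, beside 21% and 20.5% of all genes. Mean Aqp1 went from 7103 to 14611 in TβRII flox/flox and from 4421 to 5133 in TβRII-/- libraries. The part of these markers in the genotype and H2O2 results, and in the difference between the H2O2 responses, was not tested. The 4 macrophage and leukocyte markers summed to 139 to 153 in TβRII flox/flox and 222 to 273 in TβRII-/- libraries, nearly all of it Cd68, the 1 marker of the list that passed the filter. Adgre1 was at 0 and Ptprc and Itgam near 0, and the part of Cd68-expressing cells in the genotype results was not tested. Other nephron segments summed to 1.03 to 10.9 and fibroblast markers to 6.78 to 26.4. The summed level of 3 endothelial markers, mostly Kdr, moved with treatment and genotype, from 125 to 138 down to 20.7 to 23.3 in TβRII flox/flox and from 459 to 584 down to 38.5 to 60.7 in TβRII-/- libraries, and its part in the results was not tested. In bulk RNA, fewer cells expressing a gene and less of its RNA per cell cannot be told apart.

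The first comparison asked how the genes responded to H2O2 in serum-free medium when TβRII was intact. In TβRII flox/flox cells the synthesis pathway rose nearly as a whole: 18 of the 19 enzymes rose and 1, Ggps1, fell, with a median log2 fold change over the enzymes of 1.14 beside 0.0068 over all genes. Of the 29 members tested, 25 were called at an adjusted p under 0.05 (edgeR's quasi-likelihood F-test, Benjamini-Hochberg adjusted over 12971 genes, used throughout), against 41.6% of all genes. Of these, 23 were higher with H2O2, against 21% of all genes, and 2 were lower, against 20.5%. With a fold change of at least 1.5 as well, 20 members were called, against 8.24% of all genes. The summed normalised count of the 19 enzymes was 38940 to 41223 in the 3 untreated libraries and 86716 to 90444 in the 3 treated ones, a ratio of the means of 2.20, which abundant genes such as Msmo1, Hmgcs1 and Cyp51 dominate.

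Among the mevalonate steps, Hmgcs1, the cytosolic HMG-CoA synthase, was counted at 6418, 6158 and 7164 in untreated and 15332, 13521 and 14707 in treated TβRII flox/flox libraries. The groups were well apart, and the log2 fold change was 1.14 ± 0.068 (SE, n = 3 a group, adjusted p = 6.93e-15). Acat2, which joins 2 acetyl-CoA at the entry of the pathway, went from 581, 556 and 567 to 1105, 1070.1 and 1073, with no overlap and a log2 fold change of 0.93 ± 0.071 (SE). Mvd, the decarboxylase that yields isopentenyl diphosphate, had the largest rise of these 8 genes, from 749, 856 and 804 to 1807, 1798 and 1799 (log2 fold change 1.17 ± 0.061). Idi1, which interconverts the 2 isoprenoid building units, rose by 1.06 ± 0.091 on the log2 scale, and Fdps, the farnesyl diphosphate synthase, by 0.92 ± 0.059. The kinases had smaller log2 fold changes. Mvk, mevalonate kinase, rose by 0.71 ± 0.080, and Pmvk, phosphomevalonate kinase, by 0.41 ± 0.059, from 997, 1010.4 and 1037 to 1373, 1374 and 1289. Ggps1 makes geranylgeranyl diphosphate for protein prenylation and so branches off the road to cholesterol. It was the enzyme that fell, from 604, 588 and 651 to 549, 476 and 527, a log2 fold change of -0.25 ± 0.078 (adjusted p = 0.0112). The call on Ggps1 was lost without untreated replicate 3 (adjusted p = 0.0642) or treated replicate 2 (adjusted p = 0.0926) of TβRII flox/flox.

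All 11 enzymes of the squalene and sterol steps rose in TβRII flox/flox cells, with log2 fold changes from 0.55 for Ebp to 1.40 for Cyp51. Cyp51, the lanosterol 14-alpha demethylase, was counted at 5853, 5759.8 and 4989 in untreated and 13968, 14649 and 15060 in treated libraries (log2 fold change 1.40 ± 0.069, adjusted p = 8.61e-17). Nsdhl, a dehydrogenase that acts with Msmo1 and Hsd17b7 in removing the C4 methyl groups, went from 1220.3, 1161 and 1024 to 2929, 2955 and 3051. Neither gene had a treated library near an untreated one. Tm7sf2, a sterol C14 reductase, was at 279, 296 and 244 untreated and 696, 715 and 704 treated, a log2 fold change of 1.37 ± 0.084. Lss, which closes the sterol ring to give lanosterol, rose by 1.27 ± 0.063 on the log2 scale, Fdft1, squalene synthase, by 1.16 ± 0.060, and Sqle, squalene epoxidase, by 1.18 ± 0.065. Msmo1 was the most abundant of the enzymes and reached 15215, 15461 and 16808 from 7293, 6896 and 6369. Dhcr7, which carries out a final reduction to cholesterol, rose by 1.18 ± 0.067, Hsd17b7 by 1.07 ± 0.060, Sc5d, the lathosterol desaturase, by 0.95 ± 0.060 and Ebp, the sterol isomerase, by 0.55 ± 0.070. Ebp therefore had the smallest rise of the sterol steps, about as large as that of Srebf2.

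**Figure D1:**
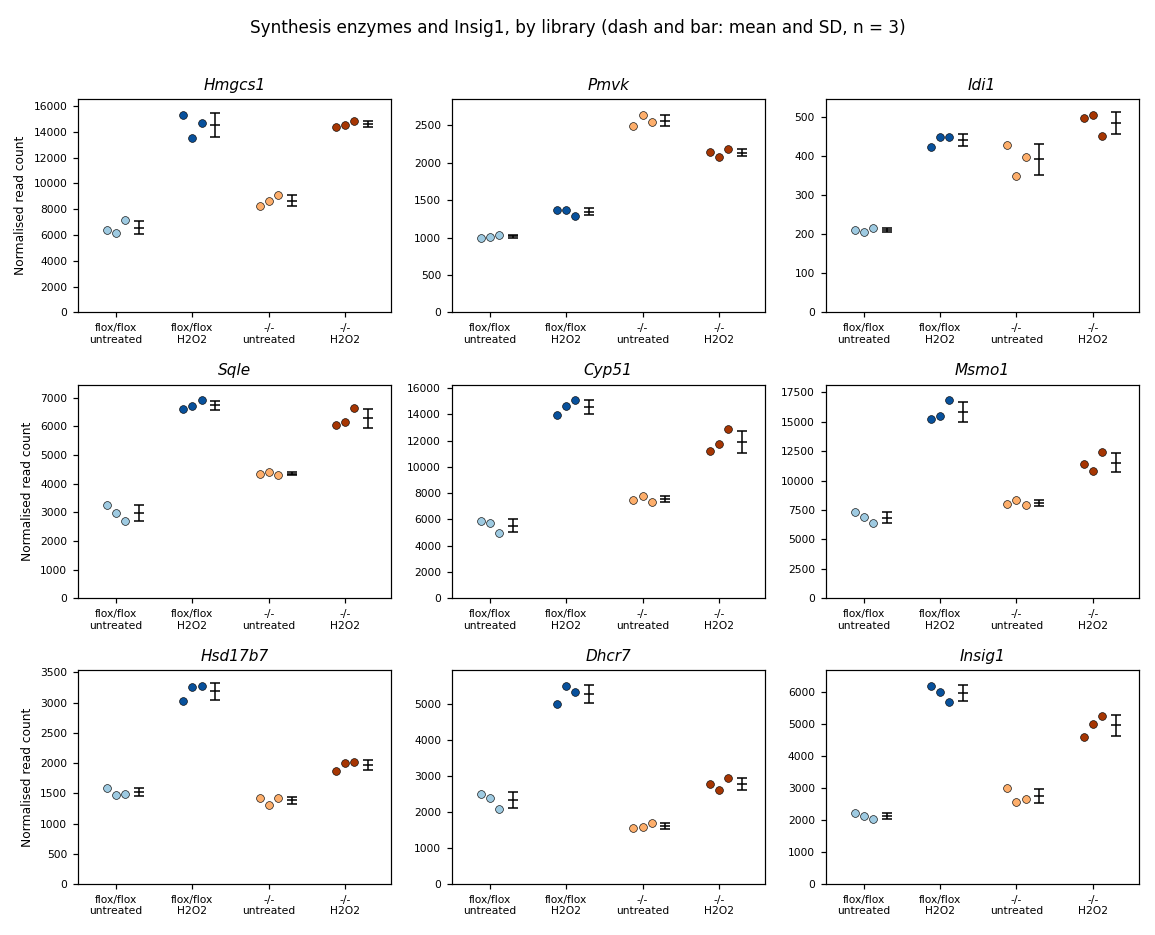
Normalised read counts (y axes, starting at 0) of 8 synthesis enzymes and Insig1 in each of the 12 libraries, by group (x axes), with the mean and SD of 3 libraries beside the points. In 7 of the 9 panels every treated library lies above every untreated one (the exceptions are Pmvk and Idi1), and in 6 the treated TβRII flox/flox mean is the highest, while Pmvk is higher in the 6 TβRII-/- libraries and falls with H2O2 there.

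Upstream of the enzymes, Insig1 had the largest rise of all 29 members tested. Insig1 is itself a target of SREBP2 and restrains its processing. Its counts were 2216, 2118 and 2039 in untreated and 6194, 6015 and 5704 in treated TβRII flox/flox libraries, a log2 fold change of 1.49 ± 0.066 (SE, adjusted p = 7.75e-18). Its paralogue Insig2, which is not under the same sterol control, was 414, 379 and 367 untreated and 399.7, 429.7 and 358 treated, and these groups overlapped (log2 fold change 0.034 ± 0.081, 95% interval -0.13 to 0.20, adjusted p = 0.769). Srebf2 was counted at 10708, 9768 and 8693 untreated and 14732, 15539 and 14663 treated, with no overlap and a log2 fold change of 0.62 ± 0.072. Scap was 2855, 2516 and 2215 untreated and 2901, 3103 and 2799 treated. The Scap groups overlapped, and its call (log2 fold change 0.21 ± 0.072, adjusted p = 0.0168) was lost without untreated replicate 3 (adjusted p = 0.136) or treated replicate 2 (adjusted p = 0.0951). The log2 change of Srebf2 RNA was thus smaller than that of 16 of the 18 enzymes that rose, without a test of that difference. Stard4, which moves cholesterol between membranes and is likewise sterol-regulated, rose by 0.60 ± 0.061 on the log2 scale.

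None of the 3 LXR-driven genes was called higher with H2O2 in TβRII flox/flox cells, where most enzymes rose, against 21% of all genes. Mylip was called higher in TβRII-/- cells. Abca1, the transporter that loads cholesterol onto apolipoprotein A-I, was counted at 646, 547 and 547 in untreated and 161, 166 and 165 in treated TβRII flox/flox libraries. It fell by 1.82 ± 0.092 on the log2 scale (SE, adjusted p = 1.39e-16), to a level 0.283 times the untreated one, and was the member with the largest change in either direction. Abcg1, a transporter that passes cholesterol to lipoprotein particles, was low, at 11.6, 10.015 and 19.4 untreated and 19.3, 6.2 and 6.88 treated, with overlapping groups (log2 fold change -0.32 ± 0.43, 95% interval -1.18 to 0.55, adjusted p = 0.581). Mylip encodes an LXR-induced ubiquitin ligase that marks lipoprotein receptors for breakdown. It was 145, 150.2 and 133 untreated and 123, 146 and 121 treated, and these groups overlapped too (log2 fold change -0.13 ± 0.13, 95% interval -0.41 to 0.14, adjusted p = 0.444). The fall was therefore called for 1 of 3 LXR-driven genes, against 20.5% of all genes, and 3 genes are too few to be set apart from that share. Lpcat3, an LXR target outside the members, rose in these cells (0.57 ± 0.065, adjusted p = 2.13e-08), as most enzymes did. Of the receptors, Nr1h2 (LXRβ) was 832, 888 and 765 untreated and 915, 869 and 865 treated, with overlapping groups and an adjusted p of 0.318. Nr1h3 (LXRα) had 0 to 10 raw counts in every library and was not tested. Soat1, which esterifies cholesterol for storage, rose from 1422, 1381 and 1118 to 1734, 1705 and 1898 (log2 fold change 0.44 ± 0.073, adjusted p = 1.23e-05).

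**Figure D2:**
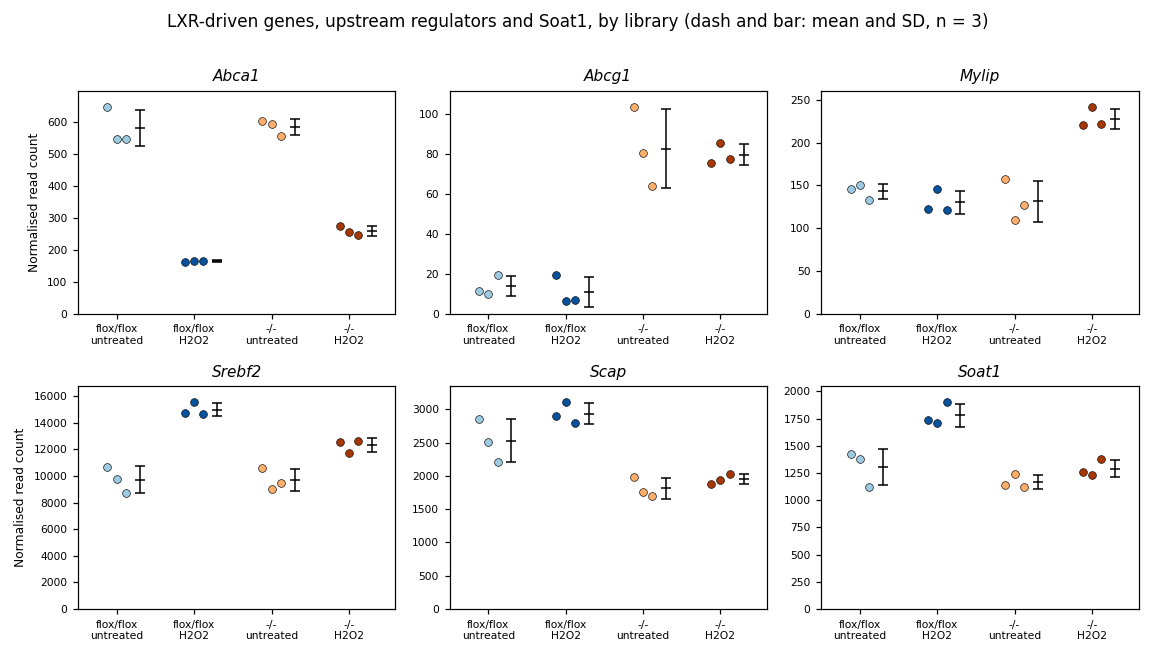
Normalised read counts (y axes, starting at 0) of the 3 LXR-driven genes, Srebf2, Scap and Soat1 in each of the 12 libraries, by group (x axes), with the mean and SD of 3 libraries beside the points. Abca1 falls with H2O2 in both lines, Abcg1 is 64.1 or more in every TβRII-/- library and 19.4 or less in every TβRII flox/flox library, and Mylip stands above the other groups only in treated TβRII-/- libraries.

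The second comparison asked the same of the TβRII-/- line. In TβRII-/- cells 24 of the 29 members were called, 22 higher with H2O2 and 2 lower, against 39.6% of all genes called, 20.5% higher and 19.1% lower. With a fold change of at least 1.5 as well, 12 members were called, against 8.33% of all genes. Of the 19 enzymes, 17 rose and Pmvk fell, and their median log2 fold change was 0.54. The summed count of the enzymes was 49605 to 51035 in untreated and 73592 to 78263 in treated libraries, a ratio of the means of 1.49, against 2.20 in TβRII flox/flox cells. The 21 members called in the same direction in both lines were 17 enzymes, Insig1, Srebf2, Stard4 and Abca1, against 23.3% of all genes called in the same direction in both.

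Tm7sf2 had the largest rise in TβRII-/- cells, from 262, 255 and 258 to 478, 479.6 and 559, a log2 fold change of 0.96 ± 0.085 (SE, adjusted p = 1.15e-10). Insig1 followed, from 3002, 2573 and 2669 to 4618, 5021 and 5258 (log2 fold change 0.85 ± 0.065), and Dhcr7 rose by 0.78 ± 0.068. These genes again showed no overlap between untreated and treated libraries. Hmgcs1 went from 8223, 8663 and 9117 to 14401, 14560 and 14857, a log2 fold change of 0.75 ± 0.067. Fdps rose by 0.74 ± 0.058, Lss by 0.71 ± 0.062, Mvd by 0.68 ± 0.060, Nsdhl by 0.67 ± 0.063 and Cyp51 by 0.66 ± 0.068 on the log2 scale. The smallest called rises among the enzymes were those of Sc5d (0.36 ± 0.059), Idi1 (0.31 ± 0.081), Ebp (0.30 ± 0.069) and Mvk (0.29 ± 0.072). The remaining enzymes that rose, Acat2, Fdft1, Sqle, Msmo1 and Hsd17b7, had log2 fold changes of 0.50 to 0.61. Pmvk went the other way, from 2496, 2643 and 2542 to 2148, 2079.6 and 2183 (log2 fold change -0.26 ± 0.055, adjusted p = 3.13e-04), and Ggps1 was not called (log2 fold change -0.12 ± 0.078, adjusted p = 0.218).

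Among the regulators in TβRII-/- cells, Srebf2 rose from 10592, 9006 and 9479 to 12586, 11760 and 12664, a log2 fold change of 0.35 ± 0.072. Scap (log2 fold change 0.10, adjusted p = 0.27) and Insig2 (log2 fold change 0.062, adjusted p = 0.539) were not called. Stard4 rose by 0.57 ± 0.062, close to its rise in the other line. Abca1 fell from 601, 593 and 556 to 274, 256 and 245, by 1.18 ± 0.083 on the log2 scale (adjusted p = 7.56e-13). Mylip rose from 157, 109 and 127 to 221, 241 and 222, by 0.80 ± 0.12 (adjusted p = 3.41e-06), so that 2 LXR-driven genes moved in opposite directions in these cells. Abcg1 was 104, 80.4 and 64.1 untreated and 75.7, 85.7 and 77.6 treated, with overlapping groups and an adjusted p of 0.884. Nr1h2 had a log2 fold change of 0.20 ± 0.068 (adjusted p = 0.0196), but its groups overlapped and the call was lost without untreated replicate 2 (adjusted p = 0.0975), untreated replicate 3 (adjusted p = 0.109) or treated replicate 1 (adjusted p = 0.119). Soat1 was 1142, 1243 and 1119 untreated and 1259, 1229 and 1376 treated and was not called (adjusted p = 0.134).

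**Figure D3:**
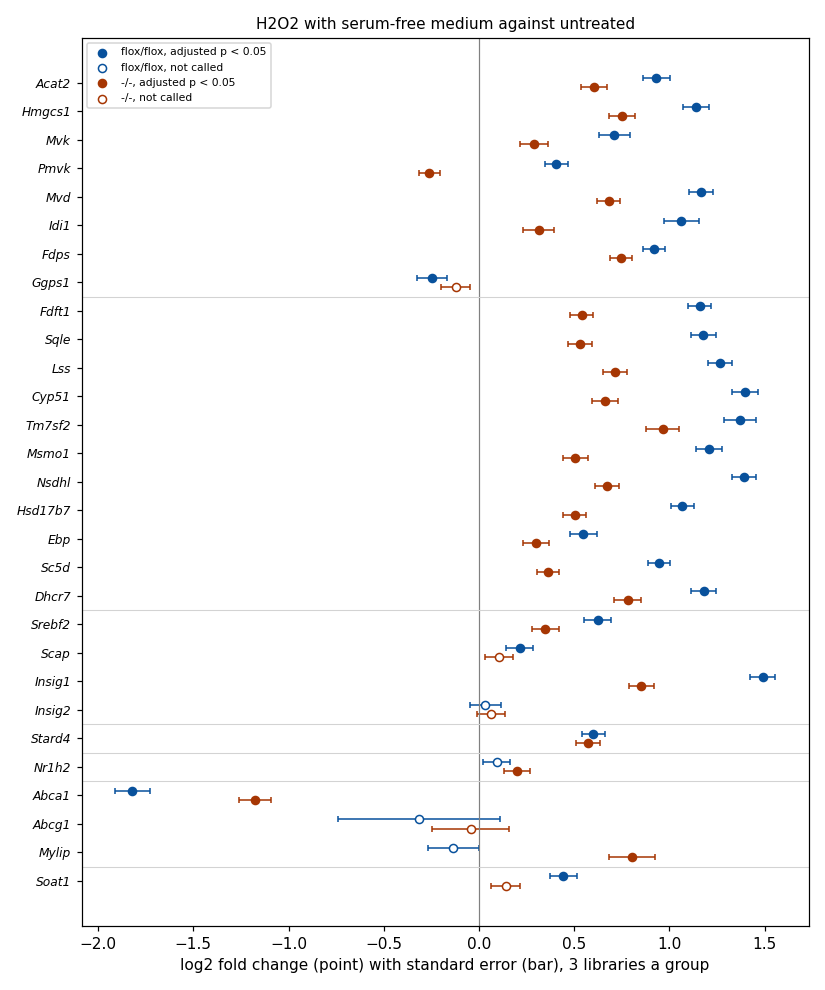
Log2 fold change of H2O2-treated against untreated libraries (x axis, with standard error, 3 libraries a group) for the 29 members tested (y axis, ordered by role), in TβRII flox/flox and TβRII-/- cells, filled where the adjusted p was under 0.05. The TβRII-/- point lies left of the TβRII flox/flox point for 18 of the 19 enzymes, and right of it for Abca1 and Mylip.

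The 2 responses came from separate libraries, and their difference was tested as an interaction term. For 16 of the 19 enzymes the response was called more negative in TβRII-/- cells. Of the 29 members, 19 were called for the difference, against 10.2% of all genes, with 2 more positive in TβRII-/- cells, against 3.9% of all genes, and 17 more negative, against 6.28%. With a fold of at least 1.5 between the responses as well, 10 members were called, against 2.36% of all genes. The difference was negative for 18 of the 19 enzymes and called for 16 of them, with a median of -0.55 on the log2 scale, beside 0.014 over all genes. Across the 19 enzymes the log2 responses of the 2 lines had a Pearson r of 0.833 and a Spearman rho of 0.668, which describes genes of the same libraries and not independent replicates. A list of 6 cycling-cell markers moved with the same term: 1 was called more positive and 4 more negative, and its summed level was 29046 to 32556 in both untreated groups and in treated TβRII flox/flox libraries together, against 25267 to 26029 in treated TβRII-/- libraries, and its part in the result was not tested.

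Among the enzymes the largest differences between the responses were those of Idi1 (-0.75 ± 0.12, SE, log2 scale, TβRII-/- minus TβRII flox/flox, adjusted p = 9.75e-05), Cyp51 (-0.73 ± 0.096), Nsdhl (-0.72 ± 0.089), Msmo1 (-0.70 ± 0.095) and Pmvk (-0.67 ± 0.081, adjusted p = 9.56e-07). For Idi1, Cyp51, Nsdhl and Msmo1 the gene rose in both lines and rose less in TβRII-/- cells, whereas Pmvk rose in one line and fell in the other. Sqle, Fdft1, Sc5d, Hsd17b7, Lss, Mvd, Mvk, Tm7sf2, Dhcr7, Hmgcs1 and Acat2 had differences of -0.65 to -0.32, all called. The 2 calls with the largest adjusted p among these enzymes depended on single libraries. Acat2 (-0.32 ± 0.098, adjusted p = 0.031) was not called without TβRII-/- untreated replicate 2 or 3 or treated replicate 1 or 3 (adjusted p from 0.0600 to 0.106), and Tm7sf2 (-0.40 ± 0.12, adjusted p = 0.0277) was not called without TβRII flox/flox untreated replicate 3 or TβRII-/- untreated replicate 1, treated replicate 1 or treated replicate 2 (adjusted p from 0.0598 to 0.0846). The differences of Fdps (-0.17, adjusted p = 0.189), Ebp (-0.25, adjusted p = 0.109) and Ggps1 (0.12, adjusted p = 0.543) did not pass, although Ebp passed without TβRII flox/flox untreated replicate 1 (0.0478) or 2 (0.0426).

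Of the regulators, Insig1 also responded less in TβRII-/- cells, with a difference of -0.64 ± 0.092 on the log2 scale (adjusted p = 1.48e-05). Srebf2 had a difference of -0.28 ± 0.10 with an adjusted p of 0.0799, which passed under DESeq2 (0.0440), with no filter on low counts (0.0492) and without TβRII flox/flox untreated replicate 1 (0.00578). Scap (-0.11, adjusted p = 0.567), Insig2 (0.028, adjusted p = 0.926), Stard4 (-0.029, adjusted p = 0.893) and Nr1h2 (0.11, adjusted p = 0.563) did not pass, with 95% intervals of the difference of -0.32 to 0.099, -0.20 to 0.25, -0.21 to 0.15 and -0.095 to 0.31. Abca1 and Mylip had the opposite sign to most enzymes: 0.65 ± 0.13 for Abca1 (adjusted p = 8.56e-04), whose fall was smaller in TβRII-/- cells, and 0.94 ± 0.18 for Mylip (adjusted p = 7.84e-04). None of the 5 genes tested on a list of LXR partners and other LXR targets, Lpcat3 among them, was called for this difference. Abcg1, at 0.27 ± 0.47 and an adjusted p of 0.783, could not be resolved at its low counts in TβRII flox/flox cells. Soat1 had a difference of -0.30 ± 0.10 (adjusted p = 0.057), which passed with no filter (0.0304), with DESeq2's size factors (0.0486) and without any 1 of 5 libraries (adjusted p from 0.00704 to 0.0467).

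A further comparison set the untreated lines side by side. In normal medium 21 of the 29 members differed between TβRII-/- and TβRII flox/flox cells, 17 higher and 4 lower in TβRII-/-, against 64.7% of all genes called, 33.3% higher and 31.4% lower. The share of members called was thus near that of all genes, and what differed from it was the split: of the 19 enzymes 13 were higher and 2 lower, and the median of their log2 fold changes was 0.28. With a fold change of at least 1.5 as well, 5 members were called (Abcg1, Pmvk, Idi1, Mvk and Fdft1), against 28% of all genes.

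Abcg1 had the largest difference between the untreated lines, at 11.6, 10.015 and 19.4 in TβRII flox/flox and 104, 80.4 and 64.1 in TβRII-/- libraries. The groups were far apart although the counts were low (log2 fold change 2.58 ± 0.29, SE, adjusted p = 2.11e-09). Pmvk was 997, 1010.4 and 1037 in TβRII flox/flox and 2496, 2643 and 2542 in TβRII-/-, a log2 fold change of 1.34 ± 0.058 (adjusted p = 1.63e-19). Idi1 was 211, 206 and 216 and 429, 350.5 and 397 in the same order (0.89 ± 0.092), Mvk differed by 0.74 ± 0.079 and Fdft1 by 0.71 ± 0.060. Of the 4 enzymes past 1.5-fold, 3 were among the 8 of the mevalonate steps and 1 among the 11 later ones, beside 28% of all genes. These counts are too small to place the difference in one part of the pathway. Smaller differences were called for Sqle (0.55 ± 0.064), Cyp51 (0.44 ± 0.068), Hmgcs1 (0.40 ± 0.067), Lss (0.35 ± 0.064), Acat2 (0.28 ± 0.073), Nsdhl (0.28 ± 0.065), Msmo1 (0.24 ± 0.067), Fdps (0.23 ± 0.059) and Mvd (0.19 ± 0.063), of which Mvd was not called without TβRII flox/flox untreated replicate 1 (adjusted p = 0.0785). Washc5, whose exons overlap those of Sqle on the other strand, was also higher in untreated TβRII-/- cells (0.48 ± 0.060), and its part in the Sqle counts was not tested. Dhcr7 was lower in TβRII-/- cells, at 1548, 1596 and 1705 against 2514, 2402 and 2076 (-0.53 ± 0.069), and so was Ggps1 (-0.25 ± 0.077). Tm7sf2 (adjusted p = 0.471), Hsd17b7 (0.0566), Ebp (0.091) and Sc5d (0.959) were not called. Hsd17b7 was called, as lower, without TβRII flox/flox untreated replicate 2 (0.0375) or 3 (0.0352), and Ebp, as higher, without replicate 2 of that group (0.0431).

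Among the other members of the untreated lines, Insig1 (0.37 ± 0.066), Insig2 (0.47 ± 0.078) and Nr1h2 (0.37 ± 0.071) were higher in TβRII-/- cells. Scap (-0.48 ± 0.073) and Stard4 (-0.42 ± 0.063) were lower. Srebf2 had a log2 fold change of -0.0047 (95% interval -0.15 to 0.14, adjusted p = 0.957) and Abca1 one of 0.0071 (95% interval -0.15 to 0.17, adjusted p = 0.94), so that for both any difference between the untreated lines was small beside the H2O2 responses. Mylip (adjusted p = 0.407) and Soat1 (0.0566) were not called either, although Soat1 was called, as lower, with no filter on low counts (0.0299) and without TβRII flox/flox untreated replicate 3 (7.22e-04) or TβRII-/- untreated replicate 2 (0.0310).

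After H2O2 the order of the lines changed for part of the pathway. Again 21 of the 29 members were called, but 7 were higher and 14 lower in TβRII-/- cells, against 66.4% of all genes called, 35.1% higher and 31.3% lower, and with a fold change of at least 1.5 as well 7 were called, against 30.7% of all genes. Of the 19 enzymes 2 were higher, Pmvk (0.67 ± 0.057) and Mvk (0.32 ± 0.073), and 9 were lower (median log2 fold change -0.12). The enzymes lower in treated TβRII-/- cells lay mostly late in the pathway: 8 of the 11 squalene and sterol genes and, of the mevalonate steps, Mvd (-0.29 ± 0.058). Dhcr7 was 4997, 5500.5 and 5345 in treated TβRII flox/flox and 2778, 2605 and 2952 in treated TβRII-/- libraries, a log2 fold change of -0.93 ± 0.066 (adjusted p = 7.10e-14). Hsd17b7 was 3022, 3259 and 3268 and 1865, 2000.2 and 2019 in the same order (-0.70 ± 0.059), and Sc5d 4607, 4817 and 4836 and 3131, 3108 and 3304 (-0.58 ± 0.059). No library of one line reached the other for these genes. Tm7sf2 (-0.48 ± 0.076), Msmo1 (-0.46 ± 0.067), Nsdhl (-0.44 ± 0.061), Cyp51 (-0.29 ± 0.067) and Lss (-0.21 ± 0.060) were lower as well. Of the enzymes not called, Ebp passed with only the groups compared (adjusted p = 0.0498) and Ggps1 without treated TβRII flox/flox replicate 2 (adjusted p = 0.0369), both as lower.

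For 6 members the genotype difference was called in both conditions with opposite signs: Cyp51, Lss, Msmo1, Mvd, Nsdhl and Insig1 were higher in TβRII-/- cells when untreated and lower after H2O2, as were 0.416% of all genes. Another 6, Acat2, Fdft1, Fdps, Hmgcs1, Idi1 and Sqle, were called higher untreated and not called after H2O2, as were 4.56% of all genes. Hmgcs1, for example, was 15332, 13521 and 14707 in treated TβRII flox/flox and 14401, 14560 and 14857 in treated TβRII-/- libraries, with overlapping groups and a log2 fold change of 0.0085 (95% interval -0.13 to 0.14). The remaining members called lower in treated TβRII-/- cells were Scap (-0.59 ± 0.072), Soat1 (-0.47 ± 0.073), Stard4 (-0.45 ± 0.060), Srebf2 (-0.28 ± 0.072) and Insig1 (-0.27 ± 0.064).

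All 3 LXR-driven genes were called higher in treated TβRII-/- than in treated TβRII flox/flox cells, against 35.1% of all genes. Abcg1 was 19.3, 6.2 and 6.88 in TβRII flox/flox and 75.7, 85.7 and 77.6 in TβRII-/- libraries (2.85 ± 0.30, adjusted p = 4.58e-10). Abca1 was 161, 166 and 165 and 274, 256 and 245 (0.65 ± 0.099, adjusted p = 7.45e-07), and Mylip 123, 146 and 121 and 221, 241 and 222 (0.81 ± 0.12, adjusted p = 8.15e-07). For none of the 3 did the libraries of the lines overlap, and the share of all genes without overlap was not computed. Lpcat3, the LXR target outside the members, was not called between the treated lines (-0.13, adjusted p = 0.0765). Nr1h2 (0.48 ± 0.070) and Insig2 (0.49 ± 0.077) were higher in TβRII-/- cells after H2O2 as they were before it. The summed count of the 3 LXR-driven genes fell with H2O2 from 700.1 to 803 down to 293 to 318 in TβRII flox/flox libraries. In TβRII-/- libraries it fell from 748 to 862 down to 544 to 583, while the summed enzymes rose in both lines. Abca1 made up most of the LXR-driven sum in untreated libraries, with means of 580 of 737 in TβRII flox/flox and 584 of 798 in TβRII-/-. Abca1 was the only 1 of the 3 called lower with H2O2, against 20.5% of all genes in TβRII flox/flox and 19.1% in TβRII-/- cells. Mylip rose in TβRII-/- cells.

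**Figure D4:**
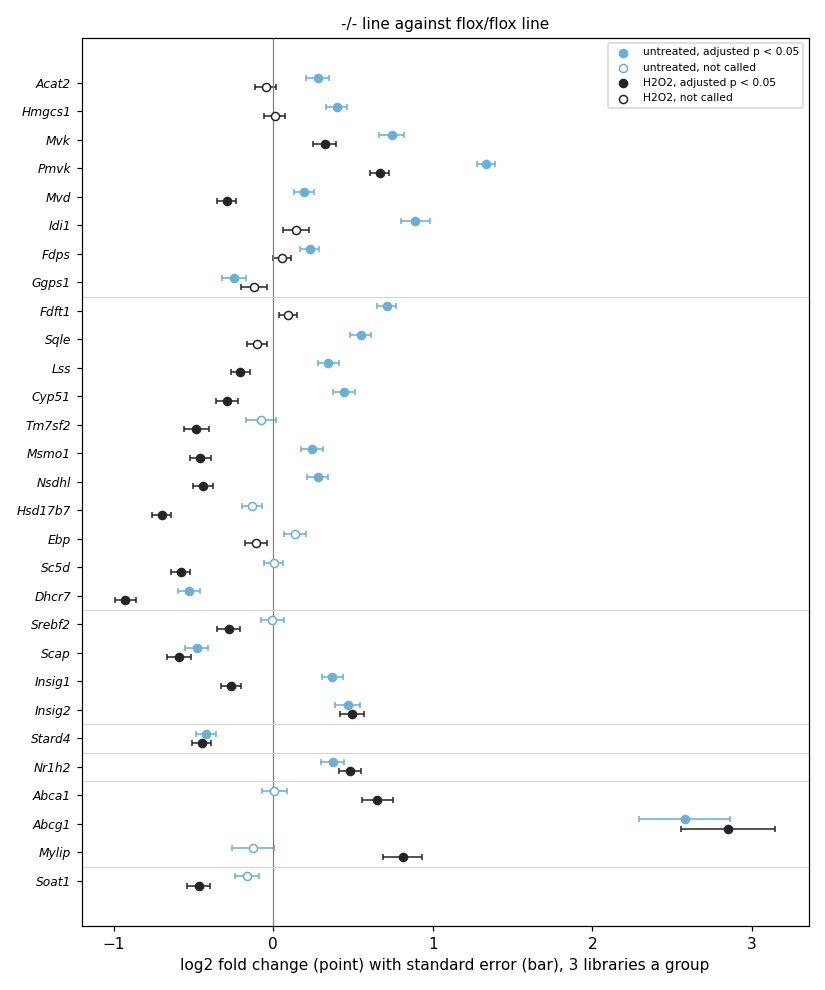
Log2 fold change of TβRII-/- against TβRII flox/flox libraries (x axis, with standard error, 3 libraries a group) for the 29 members tested (y axis, ordered by role), untreated and after H2O2, filled where the adjusted p was under 0.05. Most enzymes lie right of 0 when untreated and shift left after H2O2, Abca1 and Mylip shift right, and Abcg1 and Pmvk lie right of 0 in both conditions.

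The levels of different genes can be set side by side only per length of the counted transcript. On that scale, as mean normalised counts per kilobase, Msmo1 was the highest member in all 4 groups, at 2621 in untreated and 6055 in treated TβRII flox/flox and 3103 and 4408 in TβRII-/- libraries. In untreated TβRII flox/flox cells Srebf2 (1915), Fdps (1902), Hmgcs1 (1560.4), Cyp51 (1114) and Sqle (1058) came next, and neither Srebf2 and Fdps nor Cyp51 and Sqle differ there beyond their spread. Abca1 (56.5), Mylip (46.6), Nr1h3 (2.7) and Abcg1 (2.34) were the lowest, and Nr1h3 and Abcg1 overlapped. Pmvk stood below Sqle in untreated TβRII flox/flox cells (849.9), whereas in untreated TβRII-/- cells (2144) its libraries overlapped with those of Hmgcs1 (2055). Nr1h2, at 411, was the LXR receptor that was plainly counted.

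A further 46 genes of sterol handling were read from a list drawn up by role, of which 40 passed the filter. Between the untreated lines 30 of them were called, beside 64.7% of all genes. Of these, 13 were higher in TβRII-/- cells, beside 33.3% of all genes, and 17 lower, beside 31.4%. After H2O2 29 were called, beside 66.4% of all genes, with 10 higher, beside 35.1%, and 19 lower, beside 31.3%. With H2O2 18 rose and 4 fell in TβRII flox/flox cells, beside 41.6% of all genes called, 21% higher and 20.5% lower. In TβRII-/- cells 14 rose and 4 fell, beside 39.6% of all genes called, 20.5% higher and 19.1% lower. The shares called were thus near those of all genes in both genotype comparisons and in TβRII-/- cells with H2O2. The median log2 response was 0.15 and 0.068 in these lines, well under that of the enzymes. Among 8 genes of SREBP processing and sterol-regulated degradation, 5 rose in TβRII flox/flox cells, beside 21% of all genes. One of these was Mbtps1 (0.47 ± 0.063), the site-1 protease that cuts SREBP2. In TβRII-/- cells 1 of the 8 rose, beside 20.5% of all genes, and 1 fell, beside 19.1%. The interaction term was called for 8 of the 40, beside 10.2% of all genes. All 8 were more negative in TβRII-/- cells, as were 6.28% of all genes. Among them were Scarb1 (-0.39), Lrp8 (-0.42), Erlin1 (-0.35), Nceh1 (-0.32), Rnf139 (-0.38), Erlin2 (-0.35) and Mbtps1 (-0.31).

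Of the lipoprotein receptors, Vldlr, which takes up triglyceride-rich particles, was 414, 449.6 and 374 in untreated TβRII flox/flox and 2860.1, 2986 and 2790.4 in untreated TβRII-/- libraries (log2 fold change 2.80 ± 0.068, adjusted p = 1.72e-26). Lrp1, a large endocytic receptor, lay the other way, at 4901, 4020.5 and 3682 and 1691, 1587 and 1623 (-1.36 ± 0.083), so that these uptake receptors differed between the lines in opposite directions. Rxra, the partner with which LXR binds DNA, was higher in untreated TβRII-/- cells, at 1277, 1216 and 1244 against 512, 559 and 515 (1.24 ± 0.067). So was Gramd1b, which carries cholesterol from the plasma membrane to the endoplasmic reticulum (1.59 ± 0.11). Of the related genes on the list, Gramd1c was higher too (0.54 ± 0.14), whereas Gramd1a was lower (-0.78 ± 0.075). Cyp7b1, an oxysterol hydroxylase, was at 1.05, 5.56 and 3.23 in untreated TβRII flox/flox and 30.3, 22.3 and 39.2 in untreated TβRII-/- libraries (3.19 ± 0.44) and was the only gene of this list called with a fold of at least 2 for H2O2 in TβRII flox/flox cells (1.63 ± 0.55, adjusted p = 0.0179), on 11 or fewer raw counts in each of those 6 libraries.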

How the data were processed

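RNA of 12 libraries was sequenced (TruSeq Stranded mRNA, NovaSeq), and per the labels and the study's methods the authors trimmed reads with fastp, aligned them to GRCm38.p6 using STAR, and counted reads with featureCounts on the GENCODE M23 annotation. The deposited files hold raw read counts per transcript, as the files show, while the methods describe counts per gene. The strand and multi-mapping settings are not given in the sources used here. Because 1 read can count for several transcripts, the transcript with the highest total stood for each gene. Of 106332 transcripts, 104820 matched GENCODE M39 by identifier, and the rest, with 1.22 to 1.28% of counts, were left out.

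The counts were fitted in edgeR 4.0.16 (R 4.3.3) with TMM normalisation, filterByExpr, which kept 12971 genes, and the quasi-likelihood test with Benjamini-Hochberg adjustment over all of them. One fit with a mean per group held all 12 libraries, and 5 contrasts were drawn from it: both H2O2 effects, both genotype effects and their interaction. A call is an adjusted p under 0.05, and a second count adds a fold of at least 1.5. Replicates differed by more than counting noise (chi-square per gene 3.52 to 12.1). The spread was largest in untreated TβRII flox/flox libraries, at 6.34 to 12.1, against 3.52 to 5.39 in the other groups. The depth leaves Abcg1, Cyp7b1 and Nr1h3 at low counts and poorly resolved. The code was tested on simulated data.

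The alternatives were DESeq2 1.42.0, its size factors in edgeR, other filters on low counts, summed transcripts, only the groups compared, a replicate block and each library left out in turn. The members and lists were chosen with earlier results of these data known. All members are named. Of the other pathway genes, those with a fold of at least 2 between the untreated lines or with H2O2 in TβRII flox/flox cells and, after their values were seen, most of those called for the interaction and examples of their groups are named. Promoter windows are from RefSeq (GRCm38.p6). Some genes of the pathway are not reported here.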

Additional observations from a re-analysis of the deposited data

Results flagged for a closer look

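For 19 members the H2O2 effect differed between the lines by the interaction term of the edgeR fit, at an adjusted p under 0.05, which 10.2% of all genes also reached. As TβRII-/- minus TβRII flox/flox on the log2 scale, the difference among the mevalonate steps was -0.32 for Acat2, -0.39 for Hmgcs1, -0.42 for Mvk, -0.67 for Pmvk, -0.48 for Mvd and -0.75 for Idi1. Among the squalene and sterol steps it was -0.62 for Fdft1, -0.65 for Sqle, -0.55 for Lss, -0.73 for Cyp51, -0.40 for Tm7sf2, -0.70 for Msmo1, -0.72 for Nsdhl, -0.56 for Hsd17b7, -0.58 for Sc5d and -0.40 for Dhcr7. It was -0.64 for Insig1. The 2 LXR-driven genes had the other sign, with 0.65 for Abca1 and 0.94 for Mylip. Groups of 3 libraries are too small to look for single libraries far from the others.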

How the results depend on the processing

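No member that was called changed direction under any alternative run. Calls held in every alternative for 20 of 21 members between the untreated lines, 21 of 21 between the treated lines, 23 of 25 and 23 of 24 for H2O2 in TβRII flox/flox and TβRII-/- cells, and 17 of 19 for the interaction, and the exceptions are named beside their results. Asking for a fold of at least 1.5 as well left 5, 7, 12 and 10 members called for the untreated lines, the treated lines, H2O2 in TβRII-/- cells and the interaction, and 3636, 3985, 1069, 1080 and 306 genes in all for the untreated lines, the treated lines, H2O2 in TβRII flox/flox, H2O2 in TβRII-/- cells and the interaction. Leaving out each library in turn gave 833 (without treated TβRII-/- replicate 1) to 1680 genes for the interaction, against 1321 with all libraries, and 878 without treated TβRII-/- replicate 2. Uncalled values near 0 changed sign. For the treated lines Hmgcs1 became -0.0055 with DESeq2's size factors, -0.0030 with DESeq2, -0.0028 with only the groups compared and -0.023 with summed transcripts. For the untreated lines Sc5d became -0.0022 with no filter, Srebf2 0.011 with at least 10 counts in every library and Abca1 -0.0047 with summed transcripts, which also moved Insig2 to -0.054 for the interaction. With libraries left out, log2 values ranged for the untreated lines from -0.044 to 0.088 (Abca1), -0.060 to 0.026 (Sc5d) and -0.089 to 0.066 (Srebf2), and for the treated lines from -0.068 to 0.020 (Hmgcs1) and -0.0023 to 0.069 (Fdps). For H2O2 they ranged from -1.05 to 0.023 (Abcg1) and -0.026 to 0.11 (Insig2) in TβRII flox/flox cells and from -0.20 to 0.14 (Abcg1) in TβRII-/- cells, and for the interaction from -0.084 to 0.98 (Abcg1), -0.067 to 0.070 (Insig2) and -0.093 to 0.013 (Stard4). The cause of these changes was not tested. Same-numbered libraries did not deviate together (correlations -0.10 to 0.058). This shows no shared shift by number, but it cannot show whether same-numbered libraries were cultured or processed together. With the replicate block 21, 21, 25, 24 and 19 members and 8287, 8523, 5235, 4981 and 1202 genes were called, in the order of the untreated lines, the treated lines, both H2O2 effects and the interaction. Low counts limit Abcg1, Cyp7b1 and Nr1h3.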

Other observations

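Several members lie tail to tail with a protein-coding gene on the opposite strand, and without strand in the counting the reads of both cannot be told apart where exons overlap. In GENCODE M39 the overlap covered 28.8% of the counted Fdft1 transcript (with Ctsb), 24.2% of Cyp51 (Akap9), 16.7% of Sqle (Washc5), 12.6% of Nsdhl (Cetn2) and 12.1% of Acat2 (Tcp1). Over all libraries Ctsb had 103571 raw counts against 37988 for Fdft1, and Tcp1 41615 against 10263 for Acat2. Akap9, Washc5 and Cetn2 had fewer counts than their members. How much of a member's count came from its neighbour was not tested. With H2O2 in TβRII flox/flox cells these neighbours had log2 fold changes of 0.37 (Ctsb), 0.15 (Akap9), -0.062 (Washc5), -0.064 (Cetn2) and -0.26 (Tcp1), against 1.16, 1.40, 1.18, 1.39 and 0.93 for the members, and Ctsb, Akap9 and Tcp1 were called. Between the untreated lines they had -0.30 (Ctsb), -0.53 (Akap9), 0.48 (Washc5, adjusted p = 1.92e-08), 0.20 (Cetn2) and -0.18 (Tcp1), called for all but Cetn2, against 0.71, 0.44, 0.55, 0.28 and 0.28. Between the treated lines they had -0.44, -0.47, 0.66, 0.38 and -0.18 in the same order, all called. Washc5 thus differed in the direction of Sqle between the untreated lines and by a similar size. For the interaction none of the 5 neighbours was called by edgeR, with adjusted p-values from 0.184 to 0.996, of which Washc5 alone had an unadjusted p under 0.05. The most counted transcripts of Mvk and Lss are annotated as retained introns and that of Mvd as a target of nonsense-mediated decay. With counts summed over all transcripts of each gene, the same number of members was called in each of the 5 contrasts.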
